A study of Homo sapiens with 23 samples.

Results

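The integrated stress response and the unfolded protein response are described here in drug-resistant melanoma clones through 35 genes, found by an exact match of the gene symbol among the 35438 genes of the series. The genes fall into an ATF4 arm of 23 genes and an endoplasmic reticulum (ER) chaperone arm of 12 genes, and the arms are kept apart. All 35 passed the filter on low values. The members were not chosen by a threshold on these measurements, but they were chosen with earlier results of these data known.

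In the integrated stress response, kinases such as PERK and GCN2 phosphorylate the initiation factor eIF2, which lowers general translation while the mRNA of the transcription factor ATF4 is translated more. ATF4 then acts on genes of amino acid synthesis, tRNA charging and amino acid uptake, and on DDIT3 (CHOP), TRIB3 and CHAC1. In the unfolded protein response, the sensors ATF6 and IRE1 (gene ERN1) respond to misfolded protein in the ER, ATF6 as a cleaved transcription factor and IRE1 by splicing XBP1 mRNA, and both act on genes of ER chaperones and of ER-associated degradation. PERK belongs to both responses. Much of this control lies in translation, protein cleavage and splicing, which gene-level mRNA values do not measure.

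There were 7 resistant clones, each grown from 1 colony that survived drug. Clones 7, 8 and 9 came from selection with vemurafenib, which inhibits mutant BRAF, and were maintained in 1 µM of it. Clones 10, 11, 12 and 13 came from selection with another BRAF inhibitor, dabrafenib, given with the MEK inhibitor trametinib, and were maintained in both, dabrafenib at 250 nM and trametinib at 2.5 nM. They were set against their untreated parent, WM989 A6-G3, a melanoma line that had itself been passed through single-cell bottlenecks, grown without drug. All groups carried the same genotype label, WT. Each group had 3 poly(A) RNA libraries, except clone 11 with 2, and the order of samples was randomized before extraction. Resistance and the presence of drug cannot be told apart here, and neither can a drug arm and its drug. What separated the biological replicates of a group is not in the labels, and p-values therefore cover only the spread between these libraries, which may be technical.

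Levels are in TPM, a transcript's length-corrected share of all transcripts in a library, scaled between libraries, and each log2 fold change is on the scale of log2(scaled TPM + 1). TPM keeps no sequencing depth, so depth is unknown and the spread between libraries is the measure of error. Between 14415 genes (clone 10 replicate 1) and 24039 genes (clone 13 replicate 2) were above 0 per library. Besides clone 10 replicate 1, clone 8 replicate 3 stood apart in its scaling factor of 0.747 and in a share of 28.7% for ribosomal protein transcripts, and clone 13 replicate 1 stood apart in the ATF4 arm, as described further on. Over all 15657 tested genes, the clones had a median log2 fold change of -0.01 against untreated cells, against 0.14 with the values as deposited. Melanocyte markers, as a melanoma line should have, were high in untreated cells only: all 8 melanocyte markers fell, with a summed level of 30.2 to 478 TPM in clone libraries against 12672 to 13146 TPM in untreated libraries, and DCT, one of them, had clone means of 0.102 to 0.849 TPM, against 118 TPM in untreated cells. All 7 tested fibroblast markers of 8 rose, with a summed level of 2130 to 7962 TPM in clone libraries against 58.7 to 68.5 TPM in untreated libraries. In the mean of the 7 clones, none of the 3 tested keratinocyte or 3 tested endothelial markers passed, and 1 of 2 tested immune markers, CSF1R, rose. Taken clone by clone, VWF rose in 3 clones, and PECAM1, KRT14, TP63 and PTPRC in 1 each. Mitochondrially encoded transcripts held 20.6% to 21.2% of the TPM in untreated libraries and 6.74% to 15.6% in clone libraries. This shift and those of the markers run with every comparison of clones and untreated cells below, and their part in the results was not tested. In bulk RNA, fewer cells with a transcript and less of it per cell cannot be told apart.

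Set against untreated cells, the mean of the 7 clones was higher in 4 of the 35 genes and lower in none. Genes are called, and said to have risen or fallen, where the limma p, adjusted by Benjamini-Hochberg across every tested gene, is under 0.05 and the log2 fold change is 1 or more in size. The 4 genes were CEBPB and STC2 of the ATF4 arm and CALR and PDIA4 of the ER chaperone arm. Of all tested genes, 18.8% were called, 10.9% as higher and 7.92% as lower, so 4 of 35 called higher lies near the background. The median log2 fold change was -0.23 over the ATF4 arm, with 9 genes positive and 14 negative, and -0.05 over the ER chaperone arm, with 6 positive and 6 negative, beside -0.01 over all tested genes. The means of the log2 fold changes had the other sign, 0.06 and 0.18. In the ATF4 arm, all 20 clone libraries lay above all 3 untreated libraries in 4 of 23 genes and below them in 3. In the ER chaperone arm, they lay above in 4 of 12 genes and below in 2. Together these were 8 and 5 of the 35 genes, against 14.5% and 13.3% of all tested genes. The map of fold changes by clone shows the same few rows standing out in nearly every clone.

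**Figure D1:**
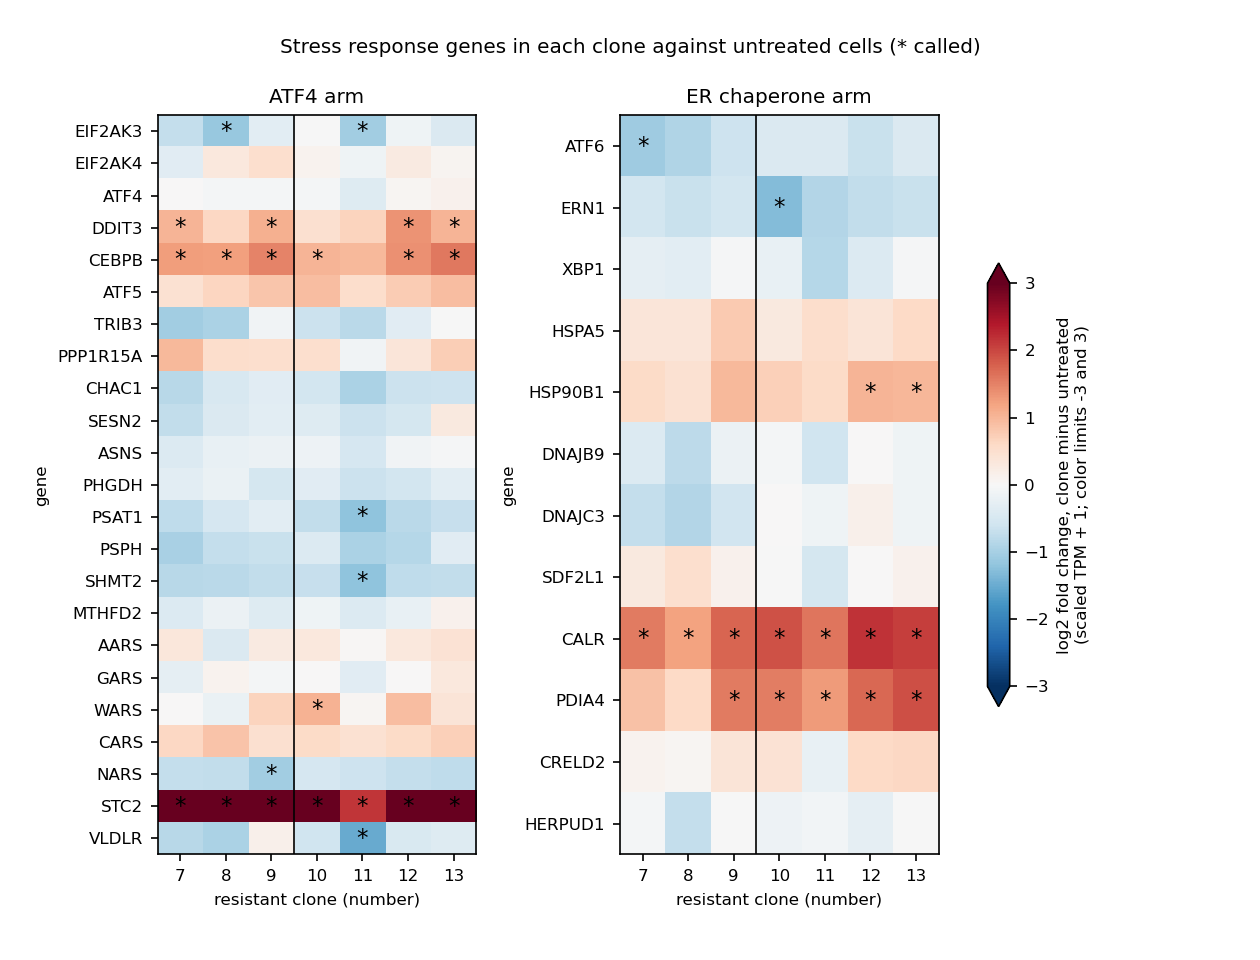
Log2 fold change of each of the 35 genes (rows) in each clone (columns, the vertical line separating clones 7 to 9 in vemurafenib from clones 10 to 13 in dabrafenib and trametinib) against untreated cells, ATF4 arm left and ER chaperone arm right, with asterisks on calls. STC2 and CALR carry an asterisk in all 7 clones and CEBPB in 6, while ATF4 carries none. Colors stop at -3 and 3, which STC2 passes in 5 clones.

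The ATF4 arm opens with the kinases that feed it. EIF2AK3 encodes PERK, the ER-resident eIF2 kinase, and EIF2AK4 encodes GCN2, which senses uncharged tRNA. EIF2AK3 had clone means from 6.24 TPM (clone 11) to 14.0 TPM (clone 10), against 13.9 ± 1.46 TPM (SD, n = 3) in untreated cells, a log2 fold change of -0.54 for the clone mean (SE 0.20, adjusted p = 0.0304). It fell in clones 8 and 11 only among the 7 clones, by 1.13 and 1.04. The value in clone 8 rests on replicate 3 at 2.68 TPM, where the other libraries had 8.71 and 7.78 TPM, and without replicate 3 it was -0.68. The value in clone 11 moved just under the fold minimum, to -0.97, without clone 11 replicate 2 or without untreated replicate 3, and was -0.77 without scaling. EIF2AK4 spanned clone means of 26.0 to 46.9 TPM, against 32.6 ± 5.23 TPM in untreated cells, a log2 fold change of 0.11 (adjusted p = 0.565).

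ATF4 itself, the transcription factor of the arm, was abundant in every library. It had 737, 857 and 764 TPM in clone 7, 687, 718 and 832 TPM in clone 8, and 705, 817 and 723 TPM in clone 9. It had 677, 829.5 and 728 TPM in clone 10, 577 and 602 TPM in clone 11, 811, 780.3 and 834 TPM in clone 12, and 543, 1088 and 1018 TPM in clone 13, against 801, 761 and 760.4 TPM in untreated cells. Clone 11 and clone 13 replicate 1 lay lowest, the other clone 13 libraries highest, and the clones overlapped with untreated cells. The log2 fold change was -0.05 (95% interval -0.34 to 0.24, adjusted p = 0.775), and its sign turned to 0.13 without scaling between libraries. The lack of a call on ATF4 mRNA says nothing of its translation.

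The other transcription factors of the arm lay above untreated cells in most libraries. DDIT3 encodes CHOP, a stress-induced factor linked to cell death. It had 140.2, 191 and 159 TPM in clone 7, 95.9, 101 and 185 TPM in clone 8, 155, 199 and 147 TPM in clone 9, 123, 140.3 and 77.5 TPM in clone 10, 156 and 102 TPM in clone 11, 274, 181 and 165 TPM in clone 12, and 85.5, 229 and 214 TPM in clone 13, against 87.3, 75.7 and 74.5 TPM in untreated cells. Only clone 10 replicate 3 and clone 13 replicate 1 reached down into the untreated range. DDIT3 rose in clones 7, 9, 12 and 13, by 1.03, 1.06, 1.34 and 1.02, while the clone mean stayed under the fold minimum at 0.89 (SE 0.25, adjusted p = 0.00538) and passed it, at 1.06, without scaling. The calls in clones 7, 9 and 13 were lost when 1 library was left out (lowest values 0.91, 0.92 and 0.77).

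CEBPB, a bZIP factor that pairs with ATF4 family members, had 237, 233 and 212 TPM in clone 7, 196, 229 and 245 TPM in clone 8, 267, 278 and 262 TPM in clone 9, 191, 226 and 167 TPM in clone 10, 196 and 180.0 TPM in clone 11, 281, 239 and 225 TPM in clone 12, and 229.6, 360.4 and 279 TPM in clone 13, against 102, 92.2 and 90.5 TPM in untreated cells. Every clone library lay above every untreated library. The clone mean rose by 1.27 (SE 0.11, adjusted p = 5.95e-09), and CEBPB rose in every clone but clone 11. Its call in clone 10, at 1.02, was lost without clone 10 replicate 2 or untreated replicate 3. ATF5, a relative of ATF4 that is also controlled in translation, likewise had every clone library above untreated cells, with clone means of 32.9 to 47.1 TPM against 23.9 ± 1.74 TPM, but its log2 fold change of 0.72 stayed under the fold minimum (SE 0.13, adjusted p = 0.000129).

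**Figure D2:**
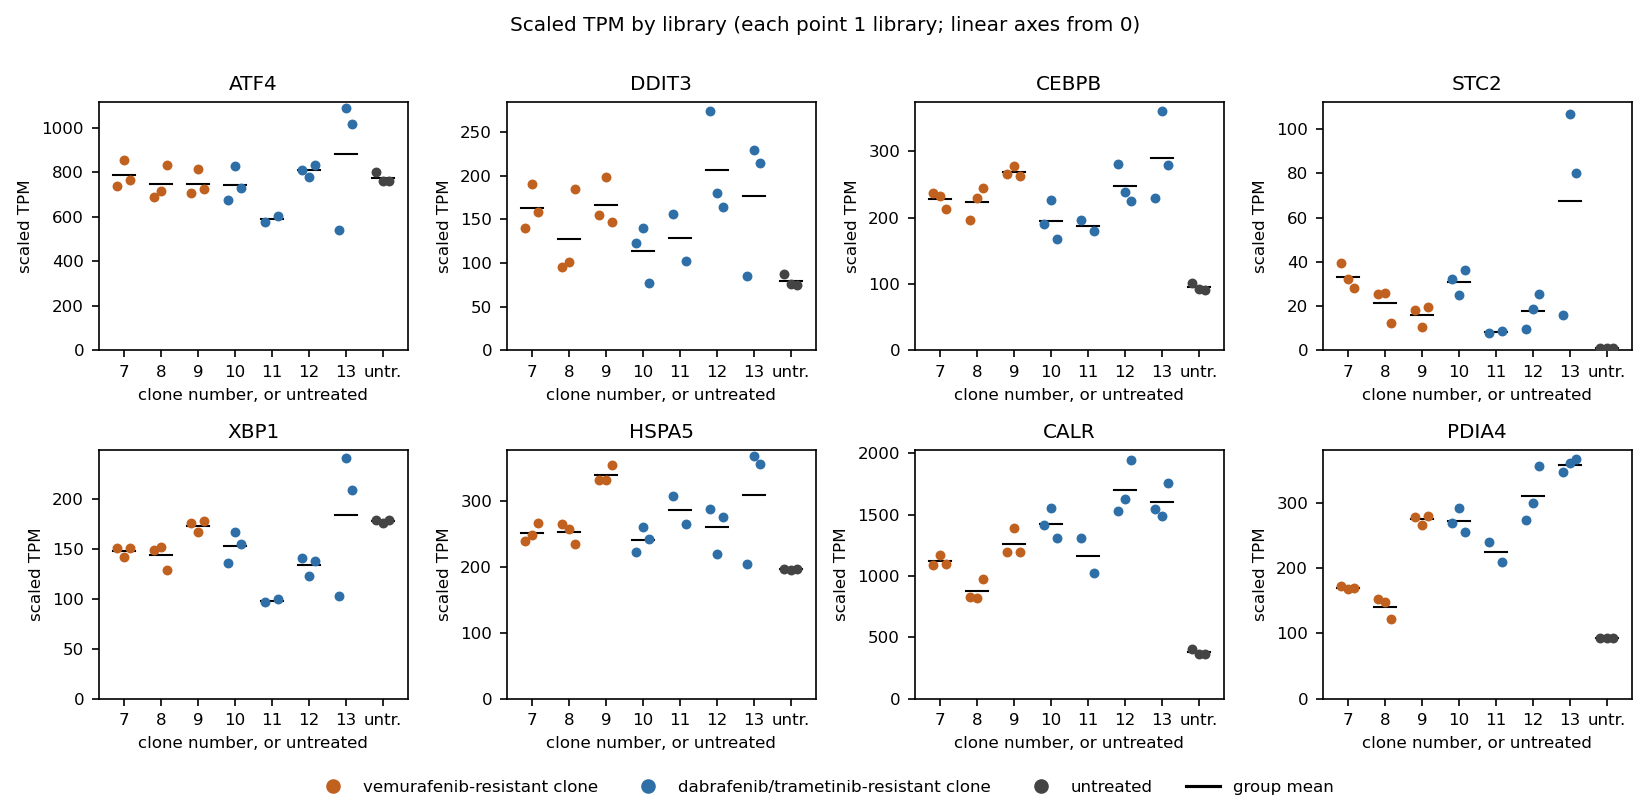
Scaled TPM of 8 genes on linear axes from 0, 1 point per library and a line at each group mean, with vemurafenib clones in orange, dabrafenib/trametinib clones in blue and untreated cells in grey. CEBPB, STC2, CALR and PDIA4 lie above the untreated points in all 20 clone libraries. The points of clone 13 spread widest for ATF4, DDIT3, CEBPB, STC2, XBP1 and HSPA5.

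Genes of feedback and stress effects had 0 calls in the clone mean. PPP1R15A encodes GADD34, which brings the phosphatase that restores eIF2, and had clone means of 113 to 231 TPM against 117 ± 4.17 TPM in untreated cells (log2 fold change 0.50, adjusted p = 0.0269). TRIB3, a pseudokinase induced by ATF4 and CHOP, had clone means of 80.6 to 231 TPM against 167 ± 0.738 TPM, with the mean TPM of 6 clones below untreated cells and that of clone 13 above (log2 fold change -0.56, SE 0.33, adjusted p = 0.164). On the log2 scale TRIB3 in clone 13 did not lie above untreated cells, at -0.02 (SE 0.44). SESN2, a stress-inducible regulator of mTORC1, had clone means of 17.9 to 24.3 TPM in 6 clones and 51.9 TPM in clone 13, against 30.4 ± 1.23 TPM in untreated cells (log2 fold change -0.39, adjusted p = 0.333). Without clone 13, the log2 fold changes were -0.65 for TRIB3 and -0.51 for SESN2, still under the fold minimum. CHAC1, which degrades glutathione, was scarce, with clone means of 0.239 to 0.905 TPM against 1.42 ± 0.466 TPM, and every clone library lay below untreated cells. Its log2 fold change was -0.63 (SE 0.12, adjusted p = 0.000238), and -1.26 with a pseudocount of 0.1, where it passed the fold minimum.

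All 6 enzymes of asparagine, serine and one-carbon metabolism had a negative log2 fold change for the clone mean, and none passed the fold minimum. ASNS, asparagine synthetase, had clone means of 168 to 289 TPM against 239.7 ± 20.6 TPM in untreated cells (log2 fold change -0.23, adjusted p = 0.529). The serine pathway runs through PHGDH, PSAT1 and PSPH. PHGDH had clone means of 239 to 329 TPM against 373 ± 13.4 TPM (-0.41), PSAT1 79.2 to 147 TPM against 183 ± 5.53 TPM (-0.72), and PSPH 26.1 to 46.5 TPM against 52.4 ± 2.80 TPM in untreated cells (-0.71). SHMT2, which moves a carbon from serine to folate in mitochondria, had 165 to 237 TPM against 384 ± 3.53 TPM (-0.83, SE 0.12, adjusted p = 1.17e-05), and all 20 clone libraries lay below untreated cells. MTHFD2, the next mitochondrial folate enzyme, had 207 to 338 TPM against 276 ± 14.3 TPM (-0.23, adjusted p = 0.381). PSAT1 and SHMT2 fell in clone 11, by 1.20 and 1.21, and in no other clone. Without scaling these were -0.90 and -0.91, under the minimum, and PSAT1 was not called without clone 11 replicate 2. The median of the 6 was -0.56, beside -0.01 over all tested genes.

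Among the 5 aminoacyl-tRNA synthetases, which charge tRNAs with amino acids, no common direction appeared. AARS had clone means of 129 to 251 TPM against 176 ± 4.77 TPM in untreated cells (0.18), GARS 195 to 339 TPM against 249.7 ± 32.5 TPM (-0.03), and WARS 260.0 to 627 TPM against 296 ± 19.6 TPM (0.41). CARS lay above untreated cells in all 20 clone libraries, at 78.1 to 103 TPM against 56.2 ± 2.06 TPM (0.61, SE 0.15, adjusted p = 0.00172), and NARS lay below in all of them, at 82.3 to 120.5 TPM against 169.6 ± 20.7 TPM (-0.72, SE 0.14, adjusted p = 0.000177). WARS rose in clone 10, by 1.04, a call that was lost without untreated replicate 1 or without clone 10 replicate 1 or 2 (lowest value 0.90). NARS fell in clone 9, by 1.04, a call that was lost without clone 9 replicate 2 or without untreated replicate 2 or 3, where its values came nearest to 0 at -0.92, and without scaling, at -0.89. The sign of GARS turned without scaling (0.15), and clone 8 replicate 3 held 495 TPM of it where the other libraries of that clone had 214 and 181 TPM.

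STC2 and VLDLR are an ATF4-responsive secreted glycoprotein and a surface lipoprotein receptor, and they went separate ways. STC2 had 39.4, 32.4 and 28.2 TPM in clone 7, 25.5, 25.9 and 12.4 TPM in clone 8, 18.3, 10.4 and 19.5 TPM in clone 9, 32.1, 24.9 and 36.3 TPM in clone 10, 7.78 and 8.86 TPM in clone 11, 9.55, 18.8 and 25.6 TPM in clone 12, and 16.1, 107 and 80.3 TPM in clone 13, against 0.921, 1.28 and 1.08 TPM in untreated cells. No clone library came near the untreated level, and clone 11 lay lowest among the clones. The clone mean rose by 3.46 (SE 0.37, adjusted p = 1.53e-07), the largest change among the 35 genes, and by 3.25 without clone 13. STC2 rose in each clone, by 2.16 in clone 11 to 4.67 in clone 13. VLDLR had clone means of 7.15 to 24.6 TPM against 22.1 ± 3.24 TPM (-0.66, adjusted p = 0.00546), and it fell in clone 11, by 1.51.

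The ER chaperone arm opens with its sensors, which had negative log2 fold changes. ATF6, the membrane-bound factor cleaved under ER stress, had clone means of 8.58 to 13.8 TPM against 18.9 ± 0.187 TPM in untreated cells (log2 fold change -0.65, SE 0.09, adjusted p = 2.23e-06). ERN1, the IRE1 kinase and nuclease, had 3.02 to 5.24 TPM against 8.10 ± 0.535 TPM (-0.77, SE 0.20, adjusted p = 0.00337). In both genes all 20 clone libraries lay below untreated cells. ATF6 fell in clone 7, by 1.06 (-0.99 without scaling, under the minimum), and ERN1 fell in clone 10, by 1.31. The ERN1 call rests on clone 10 replicate 1 at 0.944 TPM, the library with the fewest genes above 0, where the other libraries had 3.47 and 4.65 TPM, and without replicate 1 the value was -0.85.

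XBP1, the target of IRE1 splicing, had 150.4, 142 and 150.4 TPM in clone 7, 149, 152 and 129 TPM in clone 8, 175, 167 and 177 TPM in clone 9, 136, 167 and 155 TPM in clone 10, 96.9 and 99.3 TPM in clone 11, 141, 123 and 138 TPM in clone 12, and 102, 241 and 209 TPM in clone 13, against 178, 176 and 179 TPM in untreated cells. Clone 13 replicates 2 and 3 lay above the untreated range, clone 9 replicate 3 within it and every other clone library below it. The log2 fold change was -0.31 (SE 0.15, adjusted p = 0.0889), and -0.35 without clone 13 (adjusted p = 0.000389). The gene-level values do not tell spliced from unspliced XBP1.

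The main ER chaperones lay above untreated cells in every clone library. HSPA5 encodes BiP, the ER HSP70 chaperone and the usual marker of this response. It had 239, 248 and 266 TPM in clone 7, 264, 257 and 234 TPM in clone 8, 331, 332 and 354 TPM in clone 9, 222, 259 and 242 TPM in clone 10, 307 and 264 TPM in clone 11, 288, 219 and 275 TPM in clone 12, and 204, 367 and 356 TPM in clone 13, against 196, 194 and 197 TPM in untreated cells. Every clone library was above every untreated library, with clone 13 replicate 1 nearest to them. The log2 fold change of 0.48 stayed under the fold minimum (SE 0.12, adjusted p = 0.00284), and HSPA5 was called in no clone. HSP90B1 (GRP94), the ER HSP90 chaperone, had clone means of 686 to 983 TPM against 482 ± 30.9 TPM, again with every clone library above (0.76, SE 0.15, adjusted p = 0.000339). It rose in clones 12 and 13, both by 1.01, and each call was lost without replicate 3 of that clone or without untreated replicate 3 (lowest values 0.87 and 0.84).

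The J-domain and partner proteins of BiP did not follow HSPA5. DNAJB9 (ERdj4) had clone means of 7.45 to 14.0 TPM against 13.6 ± 0.228 TPM in untreated cells (-0.31, adjusted p = 0.0488). DNAJC3 (p58IPK), an inhibitor of PERK, had 5.92 to 13.1 TPM against 11.7 ± 0.562 TPM (-0.32, adjusted p = 0.0114). SDF2L1, a partner of ER J proteins, had 22.2 to 49.0 TPM against 32.5 ± 4.35 TPM (0.08, adjusted p = 0.770). None of them was called in any clone.

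CALR and PDIA4 gave the clearest rise of the arm. CALR encodes calreticulin, a lectin chaperone of glycoproteins. It had 1088, 1175 and 1096 TPM in clone 7, 829, 822 and 971 TPM in clone 8, 1196, 1389 and 1195 TPM in clone 9, 1411, 1554 and 1313 TPM in clone 10, 1305 and 1019.9 TPM in clone 11, 1529.7, 1627 and 1945 TPM in clone 12, and 1549, 1491 and 1759 TPM in clone 13, against 403, 365 and 363 TPM in untreated cells. The lowest clone library, clone 8 replicate 2, was far above the highest untreated library. The clone mean rose by 1.75 (SE 0.10, adjusted p = 7.35e-12), and CALR rose in each clone, by 1.21 in clone 8 to 2.16 in clone 12.

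PDIA4 encodes a protein disulfide isomerase of the ER, which forms and rearranges disulfide bonds. It had 172, 169 and 169 TPM in clone 7, 152, 148 and 122 TPM in clone 8, 279, 266 and 279.6 TPM in clone 9, 269, 292 and 255 TPM in clone 10, 239.9 and 210.1 TPM in clone 11, 273, 299.8 and 357 TPM in clone 12, and 347, 361 and 367 TPM in clone 13, against 92.2, 92.8 and 92.9 TPM in untreated cells. All clone libraries lay above untreated cells, and clones 7 and 8 lay below the other 5 clones. The clone mean rose by 1.36 (SE 0.08, adjusted p = 1.41e-11), and PDIA4 rose in clones 9 to 13, by 1.27 in clone 11 to 1.94 in clone 13. CRELD2, a secreted ER stress protein, had clone means of 47.3 to 86.1 TPM against 55.1 ± 3.13 TPM in untreated cells (0.28, adjusted p = 0.0311). HERPUD1, a membrane component of ER-associated degradation, had 80.8 to 138 TPM against 133 ± 1.14 TPM (-0.19, adjusted p = 0.432).

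The promoters of several ER chaperone genes hold the ER stress response element (ERSE), CCAAT followed 9 bases later by CCACG, a motif through which ATF6 and the factor NF-Y are known to act. The sequences are RefSeq's for build GRCh38.p14, 250 bases before to 50 after each gene's start, while the files name hg19, and 33 of the 35 genes had one. Searched on both strands, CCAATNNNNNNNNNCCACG was found in 5 of 12 ER chaperone arm promoters (XBP1, HSPA5, HSP90B1, CALR and CRELD2), in 0 of 21 ATF4 arm promoters and in 27 of 35116 RefSeq promoters (0.0769%). The shorter ERSE-II, ATTGGNCCACG, was in SDF2L1 and HERPUD1, in 0 of 21 ATF4 arm promoters and in 0.0541% of all promoters, and the XBP1-type core TGACGTGG was in 0 of 12 and 0 of 21, beside 0.729% of all. The C/EBP-ATF element TGATGNAA, at which ATF4 pairs with C/EBP factors, was in 5 of 21 ATF4 arm promoters (CHAC1, ASNS, AARS, CARS and NARS), in 1 of 12 of the ER chaperone arm (HERPUD1) and in 3.62% of all. Printed below are CALR, which rose in all 7 clones, and HSPA5 and XBP1, which did not pass, with HSP90B1 added after its values were seen because it is the one promoter with 2 matches. They lie at chr19:12938359-12938658 (CALR, plus strand), chr9:125241294-125241593 (HSPA5, minus strand), chr22:28800520-28800819 (XBP1, minus strand) and chr12:103930160-103930459 (HSP90B1, plus strand). Sequences run 5′ to 3′ on the gene's strand, and capitals mark the outer blocks of each ERSE, which read CGTGG and ATTGG where the match is on the opposite strand.
CALR: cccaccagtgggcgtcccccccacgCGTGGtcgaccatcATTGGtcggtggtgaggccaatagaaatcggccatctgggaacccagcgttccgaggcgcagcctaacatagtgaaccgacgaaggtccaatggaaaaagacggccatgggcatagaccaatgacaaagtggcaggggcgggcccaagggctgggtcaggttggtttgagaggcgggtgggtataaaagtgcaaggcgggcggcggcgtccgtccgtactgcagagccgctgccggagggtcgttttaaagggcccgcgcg
HSPA5: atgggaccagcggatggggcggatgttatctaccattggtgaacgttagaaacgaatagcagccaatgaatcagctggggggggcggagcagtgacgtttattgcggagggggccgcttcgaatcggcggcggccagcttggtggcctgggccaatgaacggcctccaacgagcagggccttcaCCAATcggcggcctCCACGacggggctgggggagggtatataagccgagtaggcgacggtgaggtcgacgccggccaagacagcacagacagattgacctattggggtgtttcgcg
XBP1: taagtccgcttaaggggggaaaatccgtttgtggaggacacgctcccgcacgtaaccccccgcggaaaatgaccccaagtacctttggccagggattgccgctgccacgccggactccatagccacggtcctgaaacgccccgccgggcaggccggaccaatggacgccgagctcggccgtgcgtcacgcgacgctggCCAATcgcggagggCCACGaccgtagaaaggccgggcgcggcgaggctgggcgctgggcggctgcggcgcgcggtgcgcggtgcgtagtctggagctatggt
HSP90B1: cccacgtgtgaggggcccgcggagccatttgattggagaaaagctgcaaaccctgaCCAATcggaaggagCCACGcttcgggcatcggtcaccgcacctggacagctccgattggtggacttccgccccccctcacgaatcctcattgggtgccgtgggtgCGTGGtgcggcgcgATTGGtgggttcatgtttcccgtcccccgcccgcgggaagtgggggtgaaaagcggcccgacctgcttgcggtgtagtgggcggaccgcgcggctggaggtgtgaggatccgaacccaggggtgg
The match begins 225 bases before the start in CALR, 66 in HSPA5, 52 in XBP1, and 194 and 89 in HSP90B1. The same letters thus stood in promoters of a gene that rose in 7 clones, a gene that rose in 2 clones and 2 genes that were called in none. A match is a description of these letters, not evidence of a factor at the site, and a window without a match says nothing about the factor.

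Taken clone by clone, 14 of the 35 genes were called in at least 1 clone, beside 38% of all tested genes, and 0 were called in opposite directions in different clones, beside 0.428%. STC2 and CALR rose in all 7 clones, as did 4.87% of all tested genes, and no member fell in all 7, as did 4.2%. All 7 contrasts share the same untreated libraries. In clone 7, DDIT3, CEBPB, STC2 and CALR rose and ATF6 fell, 4 and 1 of 35 beside 11.1% and 8.49% of all genes. In clone 8, CEBPB, STC2 and CALR rose and EIF2AK3 fell, 3 and 1 beside 11% and 9.3%. In clone 9, DDIT3, CEBPB, STC2, CALR and PDIA4 rose and NARS fell, 5 and 1 beside 11.5% and 8.22%. These counts are near the background or under it.

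In clone 10, CEBPB, WARS, STC2, CALR and PDIA4 rose and ERN1 fell, 5 and 1 of 35 beside 11.8% and 10.6% of all genes. In clone 11, STC2, CALR and PDIA4 rose, while EIF2AK3, PSAT1, SHMT2 and VLDLR fell, 3 and 4 beside 11.5% and 9.67%. In clones 12 and 13, DDIT3, CEBPB, STC2, HSP90B1, CALR and PDIA4 rose and 0 genes fell, 6 each, beside 11.5% higher and 8.02% lower in clone 12 and 12.3% higher and 8.34% lower in clone 13. Clone 11 was the clone with the most ATF4 arm genes at their lowest mean, 13 of 23, where 19% of all genes had their lowest mean in clone 11. Clone 13 held the highest mean in 11 of 23, beside 8.71% of all genes, and clone 8 the lowest mean in 6 of the 12 ER chaperone arm genes, beside 18.5%. For the ATF4 arm of clone 13 the mean hides a wide split between libraries.

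The 7 clones were also compared with each other. By limma's F test, and where clone means also spanned 1 log2 unit or more, 6 of the 35 genes differed, where 25.3% of all tested genes did. PDIA4 had the smallest p, with a range of 1.35 between clone 13 and clone 8 (adjusted p = 2.44e-08). DNAJC3 had a range of 1.03 between clone 12 and clone 8 (adjusted p = 1.26e-05), VLDLR 1.65 between clone 9 and clone 11 (adjusted p = 0.00151), WARS 1.24 between clone 10 and clone 8 (adjusted p = 0.00548), STC2 2.51 between clone 13 and clone 11 (adjusted p = 0.00954), and EIF2AK3 1.12 between clone 10 and clone 8 (adjusted p = 0.0100). These ranges are between means of log2 values, and for EIF2AK3 clone 11 was lowest by the mean TPM. The call on DNAJC3 was lost without clone 8 replicate 3. The range of CALR was 0.96, under the minimum, with an adjusted p of 5.26e-05, and that of ATF4 was 0.52 (adjusted p = 0.374). No member was clone-specific, that is, called the same way against each of the other 6 clones, where 2.93% of all genes were.

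The pairs of clones show where neighbours in the order part. In PDIA4, clone 7 lay 1.07 under clone 13, and clone 8 lay 1.13 under clone 12 and 1.35 under clone 13, while the other 18 of the 21 pairs were not called. In VLDLR, clone 11 lay below clones 9, 12 and 13, by 1.65 against clone 9, and clone 8 lay below clone 9. In STC2, clone 13 exceeded clones 9 and 11, and clones 7 and 10 exceeded clone 11, and the other 17 pairs were not called. These pair calls were adjusted over all genes within each pair, not over the 21 pairs. Per pair, 0 to 4 of the 35 genes were called, beside 1.52% to 12.1% of all genes, with the most between clones 8 and 12, beside 8.74%.

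The drug arms, set against each other with the clone as the unit, did not differ in any of the 35 genes. With 3 vemurafenib clones and 4 dabrafenib/trametinib clones, limma called 3 of all 15657 genes (0.0192%), all higher in vemurafenib clones. The clone means of the arms did not overlap in 2 members, beside 14.4% of all genes. DNAJC3 was lower in all 3 vemurafenib clones, at means of 6.82, 5.92 and 7.50 TPM in clones 7, 8 and 9, against 11.9, 10.6, 13.1 and 10.6 TPM in clones 10 to 13, a log2 difference of -0.70 (SE 0.14, 95% interval -1.03 to -0.37, limma adjusted p = 0.182). SDF2L1 had means of 40.4, 49.0 and 35.8 TPM in clones 7, 8 and 9, against 33.0, 22.2, 33.0 and 36.6 TPM in clones 10 to 13, a log2 difference of 0.42 (adjusted p = 0.344), and its arms were apart on mean log2 values but overlapped on these arithmetic means. For CALR and PDIA4, the differences were -0.44 (95% interval -0.89 to 0.01) and -0.61 (95% interval -1.20 to -0.03), with adjusted p-values of 0.355 and 0.329. Missing the threshold with so few clones does not show that the arms are alike.

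Within the ATF4 arm, clone 13 had the widest split between libraries, with a median range of 1.11 log2 units and the widest range of all groups in 16 of 23 genes. Over all tested genes clone 10 was widest, with a median range of 0.56 against 0.35 in clone 13. The genes in this paragraph were picked after their values were seen. TRIB3 had 47.4, 424 and 221 TPM in clone 13 replicates 1, 2 and 3, against 167, 168 and 167 TPM in untreated cells. SESN2 had 12.2, 103 and 40.2 TPM against 29.1, 30.5 and 31.6 TPM, and ASNS had 81.2, 425 and 361 TPM against 263, 231 and 225 TPM. In each of the 3 genes, replicate 1 was the lowest and replicate 2 the highest of all 23 libraries. MTHFD2 (153, 498 and 362 TPM), PSAT1 (50.6, 183 and 155 TPM) and DDIT3 (85.5, 229 and 214 TPM) were also lowest in replicate 1 within clone 13. In the ER chaperone arm the libraries differed from gene to gene. Replicates 2 and 3 exceeded replicate 1 by 1.23 and 1.02 in XBP1, by 0.85 and 0.80 in HSPA5, and by 0.99 and 0.40 in HERPUD1. SDF2L1 was lower in them, by 0.99 and 0.28, and CALR (1549, 1491 and 1759 TPM) and PDIA4 (347, 361 and 367 TPM) were the genes with the least difference of those named here.

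**Figure D3:**
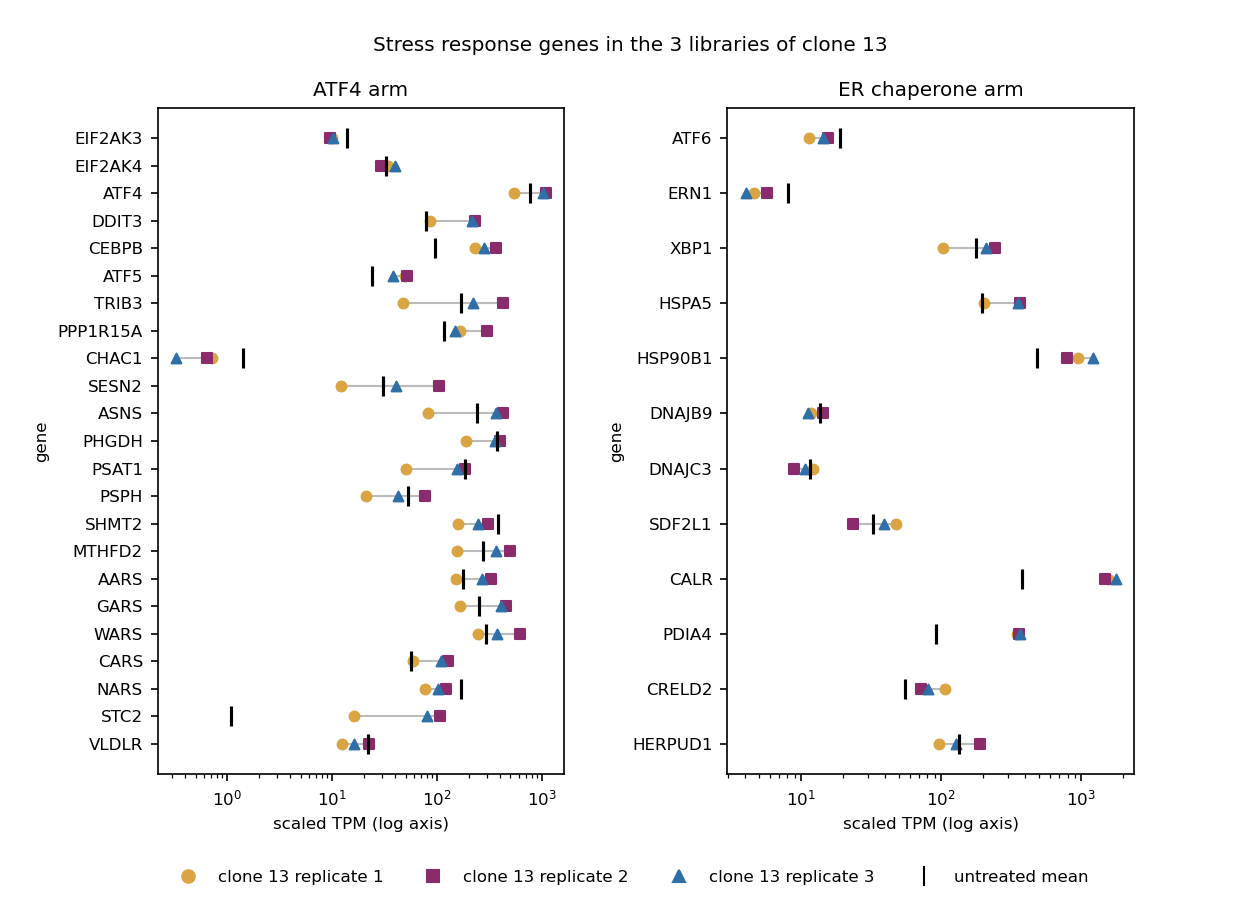
Scaled TPM (log axes) of all 35 genes in the 3 libraries of clone 13, as circles (replicate 1), squares (replicate 2) and triangles (replicate 3), with a bar at the untreated mean. In the ATF4 arm the circles sit left of the squares for most genes from TRIB3 to STC2, as for TRIB3 at 47.4 against 424 TPM. In the ER chaperone arm ATF6, XBP1, HSPA5 and HERPUD1 are also lowest in replicate 1. PDIA4 is lowest there too, but its markers lie close together, as do those of CALR.

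The split can be counted. Replicate 2 exceeded replicate 1 by at least 1 log2 unit in 14 of 23 ATF4 arm genes, beside 2.12% of all tested genes, and in 1 of 12 ER chaperone arm genes, XBP1. Replicate 3 exceeded replicate 1 by as much in 8 of 23 and 1 of 12, beside 2.09% of all genes. The median difference over the ATF4 arm was 1.11 for replicate 2 and 0.88 for replicate 3, and 0.16 and 0.13 over the ER chaperone arm. Replicate 1 was the lowest of all 23 libraries for 10 of 23 ATF4 arm genes, beside 2.15% of all genes, and replicate 2 the highest for 12 of 23, beside 3.52%. The summed level of the ATF4 arm was 2560, 6264 and 4887 TPM in replicates 1, 2 and 3, and that of the ER chaperone arm 3437, 3583 and 4189 TPM. In other groups, 0 to 3 of the 23 ATF4 arm genes spanned at least 1 log2 unit between libraries, and in clone 13 it was 14 (60.9%). Of all tested genes, 6.05% did so in clone 13, and 1.85% (clone 11) to 21.4% (clone 10) in the other groups.

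**Figure D4:**
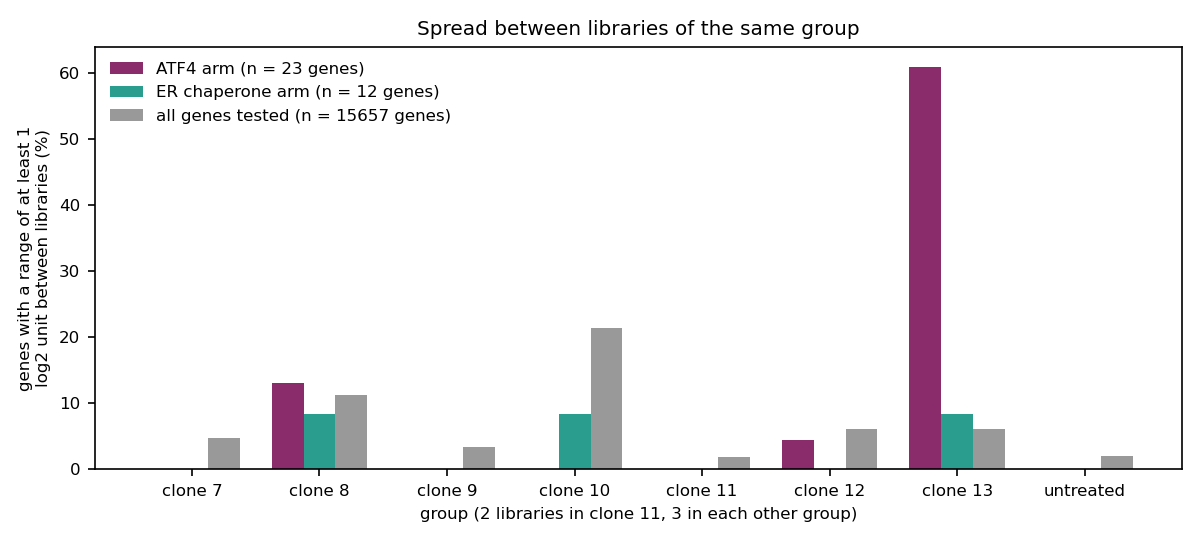
Percent of genes whose libraries within a group span at least 1 log2 unit, for the ATF4 arm, the ER chaperone arm and all tested genes, by group, with clone 11 at 2 libraries and the others at 3. The ATF4 arm stands at 60.9% in clone 13 and at 13% or less in every other group, while all tested genes are highest in clone 10 at 21.4%.

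The same split appears in a further list of ATF4 targets, read in the same libraries and chosen with earlier results of these data known. In it, 17 of 22 tested genes were at least 1 log2 unit higher in replicate 2 than in replicate 1, beside 2.12% of all genes. In replicate 3, 11 of 22 were higher than in replicate 1 by as much, beside 2.09%. Of the 15 other cytosolic aminoacyl-tRNA synthetases, 2 and 0 did so, SARS and YARS in replicate 2, with medians of 0.05 and 0.50. Replicate 1 was the lowest of all 23 libraries in 5 of the 15, beside 2.15% of all genes. Among the 13 genes of the eIF2 and eIF2B machinery and the 16 other ER folding genes, none exceeded replicate 1 by as much in either library. Of 12 cytosolic heat shock genes, 3 were at least 1 log2 unit lower in replicate 2 than in replicate 1, beside 0.792% of all genes, with a median of -0.57. In 7 of the 12, replicate 2 was the lowest of all 23 libraries, beside 2.08% of all genes. The part of this in the split was not tested. Replicates 1, 2 and 3 had 23374, 24039 and 21594 genes above 0, scaling factors of 0.997, 1.06 and 1.05, mitochondrially encoded shares of 11.4%, 13.5% and 11.8%, and ribosomal protein shares of 14.7%, 13.2% and 14.7%. Summed melanocyte markers were 276, 122 and 85.0 TPM and summed fibroblast markers 2665, 2594 and 3726 TPM in replicates 1, 2 and 3, and the part of these shifts in the split was not tested. Across all tested genes, replicate 1 correlated at 0.980 and 0.982 with the other clone 13 libraries and at most at 0.975 with a library of another clone, while replicate 3 correlated at 0.984 with clone 12 replicate 3 and at most at 0.983 within clone 13. Genes are not independent replicates, and a wrong sample label was not tested for beyond this. Which library shows the usual state of clone 13, and so what its means stand for, cannot be told from 3 libraries.

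What is said of clone 13 depends on this. Without replicate 1, 15 of the 35 genes differed among the clones, against 6 with it, beside 25.4% of all genes. Each library was left out in turn, but replicate 1 is singled out here for its low values in many of these same genes. The larger count is therefore not separate evidence about clone 13. The added ones were DDIT3, TRIB3, SESN2, ASNS, PSAT1, PSPH, MTHFD2, AARS and XBP1, and SESN2 and STC2 were then specific to clone 13, beside 2.89% of all genes. Without all 3 libraries of clone 13, a choice made after seeing the data, 7 genes differed, the 6 named above and PPP1R15A, beside 24.4% of all genes. The calls of the clone mean against untreated cells were the same 4 genes without clone 13.

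ASNS holds a well-studied C/EBP-ATF element that answers to amino acid shortage, and its promoter is shown because ASNS was among the ATF4 arm genes that differed most between the clone 13 libraries. It was added after its values were seen. The RefSeq window (GRCh38.p14) is chr7:97872359-97872658 on the minus strand, and capitals mark the match to TGATGNAA, which begins 68 bases before the start.
ASNS: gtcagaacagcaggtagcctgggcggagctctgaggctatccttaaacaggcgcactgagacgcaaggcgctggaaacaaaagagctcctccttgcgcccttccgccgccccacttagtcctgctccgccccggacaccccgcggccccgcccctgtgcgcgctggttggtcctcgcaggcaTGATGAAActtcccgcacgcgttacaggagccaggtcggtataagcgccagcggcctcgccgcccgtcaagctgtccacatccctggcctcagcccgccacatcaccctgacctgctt
Of the 14 ATF4 arm genes that differed by at least 1 log2 unit between replicates 2 and 1 of clone 13, ASNS, AARS and CARS hold this element in the window, PSPH has no window in the table, and the others, TRIB3, SESN2 and STC2 among them, do not hold it. CHAC1 and NARS also hold it and differed by -0.06 and 0.67.

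Genes around the 2 arms were followed with further lists. Of 22 tested other ATF4 targets, 2 rose and 4 fell in the clone mean, beside 10.9% and 7.92% of all genes, with a median of -0.24. SLC7A1, a cationic amino acid transporter, fell by 1.99, with clone means of 7.17 to 13.9 TPM against 40.4 TPM in untreated cells. CTH, which makes cysteine, fell by 1.84 (6.64 to 19.2 TPM against 36.5 TPM), and the bZIP factor JDP2 rose by 1.76 (33.6 to 81.1 TPM against 14.7 TPM). The other calls were ATF3 (higher), SLC7A5 and KLHL24 (lower). The 15 other cytosolic aminoacyl-tRNA synthetases had 0 calls and a median of -0.24, and of 13 genes of the eIF2 and eIF2B machinery 1 was called, EIF2AK2 (the double-stranded RNA kinase PKR), which rose by 1.45, with clone means of 29.4 to 64.4 TPM against 15.1 TPM.

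The lists around the ER chaperone arm are read against the same 10.9% and 7.92%. Of 16 other ER folding genes, 2 rose and 0 fell, near that background, 15 had a positive log2 fold change, and the median was 0.59 beside -0.01 over all genes. PPIB, an ER cyclophilin, rose by 1.16 (584 to 969 TPM against 329.8 TPM), and the disulfide isomerase PDIA3 rose by 1.07 (366 to 628 TPM against 237 TPM). Of 17 genes of ER-associated degradation and translocation, 11 had a positive log2 fold change and 1 rose, EDEM2, a protein of glycoprotein degradation, by 1.10 (50.0 to 80.8 TPM against 30.5 TPM), and the median was 0.19. Of 6 ER stress proteases and membrane-bound factors, 3 had a positive log2 fold change and 2 rose: CREB3L1, a cleaved factor known for collagen expression in bone, by 3.59 (13.0 to 30.7 TPM against 0.513 TPM), and CREB3, by 1.63 (35.3 to 60.6 TPM against 14.5 TPM). Chaperones of other compartments had medians of -0.13 over 12 cytosolic heat shock genes, where 1 gene, HSPB1, rose by 1.04, and of -0.37 over 9 mitochondrial chaperones and proteases, with 0 calls.

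**Figure D5:**
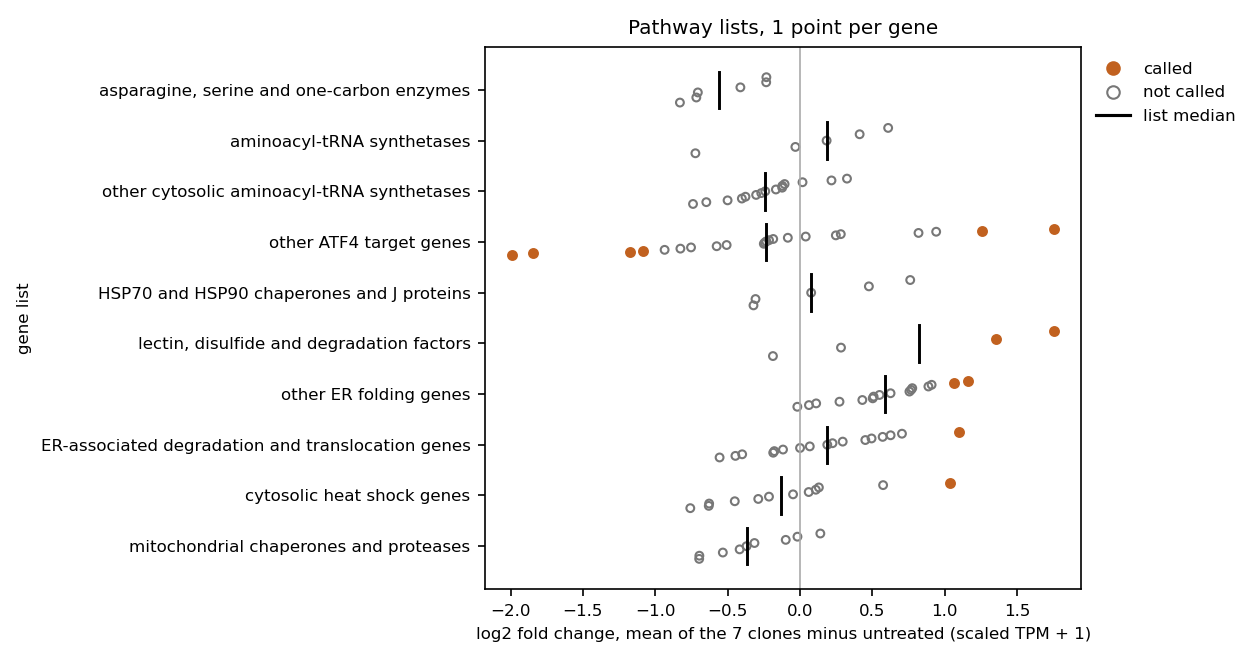
Log2 fold change of the clone mean against untreated cells for single genes (points, filled where called) of the larger gene lists, with a bar at each list's median. Medians run from -0.56 for asparagine, serine and one-carbon enzymes to 0.82 for lectin, disulfide and degradation factors, which include CALR and PDIA4.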

How the data were processed

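Poly(A) RNA of 23 libraries was sequenced as paired ends. The authors deposited a TPM value per gene for every library, that is, a share of all transcripts after correction for length. kallisto and hg19 are named in the submitters' processing notes without versions or roles, while for the annotation, the summing to genes and any filters the sources used here give nothing. The members and gene lists were chosen with earlier results of these data known.

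Libraries were scaled to each other with a trimmed mean of their log ratios (30% trimmed by ratio and 5% by level), taken over 10822 genes that reached 1 TPM in all libraries. The 15657 genes that reached 1 TPM in 2 or more libraries were tested on log2(scaled TPM + 1) with limma 3.58.1 in R 4.3.3, an empirical Bayes linear model of 8 groups, and p-values were Benjamini-Hochberg adjusted over all of them. A pseudocount of 1 understates the change of low genes. Contrasts were the mean of the 7 clones and each clone against untreated cells, the F test among clones, their 21 pairs, and, on clone means, the 3 vemurafenib against the 4 dabrafenib/trametinib clones. The procedure was tested on simulated data with independent normal noise of equal spread in all groups. The spread of the real libraries differed by group, and the outcome of that test is not given here. Values library by library are given for ATF4, DDIT3, XBP1, HSPA5 and each gene called in the clone mean or in at least 3 clones, and group means for the others. Of each further list, up to 3 called genes with the largest change are given with values, and HSPB1, PPIB, PDIA3, EDEM2, CREB3L1, CREB3 and EIF2AK2 were all the calls of their lists. Alternatives were no scaling, median-of-ratios scaling, a pseudocount of 0.1, no filter, a replicate block, and leaving out each library or clone.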

Additional observations from a re-analysis of the deposited data

Results flagged for a closer look

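Among the 4 dabrafenib/trametinib clones, 1 clone mean stood apart from the others in 2 of the 35 genes. SHMT2 averaged 165 TPM in clone 11, where the other 3 clones averaged 227 to 237 TPM. The highest of these is the mean of clone 13, whose libraries had 158, 309 and 244 TPM, so that its replicate 1 lies below the mean of clone 11. ATF6 averaged 11.6 TPM in clone 12, where the other 3 averaged 13.7 to 13.8 TPM. The gap to the nearest clone was taken as a part of the whole range, on log2(mean scaled TPM + 1). In each case this part (0.877 and 0.947) was larger than Dixon's 95% critical value for 4 values. Chance passes that value in about 1 in 20 groups, and 2 of 35 genes lies near that rate. The rule was run on the 35 genes only, so no share over all tested genes stands beside this count.

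A further 6 genes are listed because their change against untreated cells differed between clones by limma's F test: STC2 with a range of 2.51 between clone means on the log2 scale, VLDLR with 1.65, PDIA4 with 1.35, WARS with 1.24, EIF2AK3 with 1.12 and DNAJC3 with 1.03.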

How the results depend on the processing

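In the clone mean, CEBPB, STC2, CALR and PDIA4 were called higher under each alternative run, joined by DDIT3 without scaling. Median-of-ratios scaling changed no call of the clone mean and kept every single-clone and F test call of the main run. Calls new to single clones or among clones were not followed gene by gene. Without scaling, 0 members were lower in clones 7 and 9 and 1 in clone 11, 0 genes differed between the drug arms, and ATF4 (0.13) and GARS (0.15) turned sign. With a pseudocount of 0.1, 1 member was lower in the clone mean, 3 in clone 7, 2 in clone 8, 2 in clone 10, 1 in clone 12 and 1 in clone 13, and 0 genes differed between the drug arms, as without a filter. Leaving out clone 13, 2 members were lower in clone 7. Leaving out 1 library or clone at a time, lower members numbered 1 to 2 in clone 7, 0 to 2 in clone 8, 0 to 1 in clones 9, 10 and 13, and 2 to 6 in clone 11, members differing among clones 6 to 15, clone-specific members 0 to 2, and genes differing between drug arms 0 to 12. ATF4 then spanned -0.080 to 0.0066 and GARS -0.091 to 0.074. The cause of these shifts was not tested. Pairing by replicate number was looked for in the correlation of deviations from group means between libraries of different groups. Over 77 same-number pairs it ran from -0.62 to 0.42, with a median of 0.014. Over 154 different-number pairs it ran from -0.57 to 0.71, with a median of -0.0093. No pairing was apparent, but these ranges cannot exclude it. A replicate block left 4 higher and 0 lower members in the clone mean, 7 differing among clones, and 5 lower in clone 11. Counting each gene and contrast once per alternative, 31 other values dropped under the threshold and 2 passed it. Outside the clone mean, only values called in the main run were followed this way. New calls in single clones or among clones are therefore not in this count, and the 2 numbers cannot be weighed against each other. TPM gives no depth, so the precision of low genes such as CHAC1 is unknown.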
